A study of Mus musculus with 44 samples.

Results

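CD4 T cells of miR-150 knock-in mice were compared with those of wild-type mice after Th1 culture. The libraries were chosen by their titles, Th1 KI (5 libraries) and Th1 WT (5 libraries), which makes 10 of the 44 RNA libraries of the series. The whole series crosses 3 genotypes of the microRNA gene (WT, knockout KO and knock-in KI) with 3 cultures (Th0, Th1 and Treg) of sorted naive CD4+ splenocytes from mice of the strain C57BL/6NTac. Each well held 150000 cells, and all cultures ran for 3 days on plate-bound anti-CD3 with soluble anti-CD28. Th1 wells also received IL-12 and anti-IL4, Treg wells received TGF-b1 and anti-IFN-g, and Th0 wells received neither. Both groups compared here therefore had the same stimulation and cytokines and differed by the labelled genotype. The labels do not say how the knock-in was made, where it was inserted or which promoter drives it. They give no age, and they do not say what the library numbers 1 to 5 mark. In the text a library is named by its group and number.

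MicroRNAs are short RNAs that guide Argonaute proteins to partly matching messenger RNAs, mostly in 3′ UTRs, and thereby lower the stability and translation of those messengers. Pairing rests mainly on the seed, bases 2 to 8 of the mature strand. miR-150 is abundant in resting lymphocytes and falls when T cells are activated, and the transcription factor Myb is its best known target. Th1 cells are the CD4 subset that IL-12 and interferon-gamma specify through the transcription factor T-bet (Tbx21).

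The hairpin gene Mir150 lies on chromosome 7 (GRCm38, 45121757 to 45121821, plus strand), between the annotated genes Fcgrt and Gm45552 and inside neither. The strand of the hairpin that RefSeq lists as miR-150-3p is shown to mark the locus, with its seed in capitals.
mmu-miR-150-3p: cUGGUACAggccugggggauag
The main mature strand, miR-150-5p, is named only. The motif searched for its seed was TTGGGAG, on the sense strand of the longest annotated 3′ UTR of each gene. Of 14528 tested genes with such a UTR, 16% held the motif, and 4.78% held it followed by A, the longer match. Among the 6 genes that passed the test below, F2r held 2 copies and Them4 held 1, while Colq, Acap2, Gprin3 and Nectin3 held 0. The windows of F2r, Them4 and Myb are shown because F2r and Them4 are the called genes with a match and Myb is the reference target, with the motif in capitals.
F2r, chr13:95602812-95602838, minus strand: gtatgccatcTTGGGAGgcagtaacta
F2r, chr13:95602344-95602370, minus strand: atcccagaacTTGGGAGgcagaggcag
Them4, chr3:94332505-94332531, plus strand: ctaaaataaaTTGGGAGattaatgttc
Myb, chr10:21125302-21125328, minus strand: gaaaacttatTTGGGAGaattttgcat
Myb, chr10:21125201-21125227, minus strand: ttttctttttTTGGGAGatttgtgttg
The Them4 window and both Myb windows have the A after the motif, and neither F2r window has it. The last 17 letters of the second F2r window also occurred in the 3′ UTRs of 168 other tested genes, whereas those of the other 4 windows occurred in no other gene searched. A match is a description of the letters and was not tested as a binding site.

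Deposited read counts of the 2 sequencing lanes were summed per library, and the 10 libraries held between 88105462 and 120510769 counts. Levels are given as CPM, read counts scaled to a common library size with TMM factors. The poly(A)-selected libraries hardly recorded the hairpin: Mir150 had 3 counts over the 5 KI libraries, 1 over the 5 WT libraries and 0 over the 5 KO libraries, with at most 1 in any library, so the genotype could not be read from it. CD4 T cell markers were high in all 10 libraries (Cd4 between 169 and 485 CPM, Trac between 255.4 and 358.1 CPM), and Ifng stood between 791 and 2985 CPM. Th1 KI 3 and Th1 WT 4 stood apart in Cd8a, the CD8 coreceptor, at 107.4 and 131.5 CPM, against 2.41 to 9.32 CPM in the other 8. The same 2 libraries were lowest in Il2, at 0.572 and 1.03 CPM, and in Cd4, at 257.9 and 168.8 CPM. The summed CD8 T and NK cell markers ranged from 18.6 to 258 CPM in KI and from 21.8 to 405 CPM in WT, and 2 of the 9 had a log2 fold change above 0. The summed B cell markers ranged from 157 to 1434 CPM in KI, highest in Th1 KI 3, and from 86.6 to 740 CPM in WT. The summed myeloid and dendritic cell markers ranged from 49.3 to 138.8 CPM in KI, again highest in Th1 KI 3, and from 37.17 to 65.66 CPM in WT. Of these 14 genes, 8 had a log2 fold change above 0 and none passed, with a median of 0.50 that was -0.33 without Th1 KI 3. Among them Itgam (CD11b) was at 1.52 ± 0.83, with its highest values in Th1 KI 3 (4.09 CPM) and Th1 KI 2 (2.09 CPM), and Cd68 was at 0.62 ± 0.25. Lyz2 was among the 6 below 0, at -0.60 (means of 0.567 CPM in KI and 0.859 CPM in WT). The neutrophil genes S100a8 and S100a9 were at 0 in all KI libraries. S100a8 reached at most 0.039 CPM in WT, near the level that 3 counts give (0.0266 to 0.0341 CPM). In bulk RNA, fewer cells of a type and less RNA per cell cannot be told apart. Th1 WT 5 had the lowest mean correlation with its own group (0.909, the other libraries of both groups being higher). Levels of Xist and the Y-linked Ddx3y marked 3 KI and 2 WT libraries as female and 2 KI and 3 WT libraries as male.

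Few genes passed the test. In edgeR's quasi-likelihood fit over all 44 libraries, 6 of 21873 genes (0.0274%) had a Benjamini-Hochberg adjusted p under 0.05 in Th1 KI against Th1 WT. F2r, Gprin3, Them4 and Nectin3 were lower in KI (4 genes, 0.0183%), and Colq and Acap2 were higher (2 genes, 0.00914%). At an unadjusted p under 0.05 there were 3301 genes (15.1%), of which 1549 were higher and 1752 lower in KI. The median log2 fold change over all genes was 0.0054. The fit treated the 44 libraries as independent, although same-numbered libraries of a genotype deviated together across cultures (below). A limma-voom fit added after seeing the data, which allowed for that correlation, called 13 genes, 5 of the 6 among them.

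**Figure D1:**
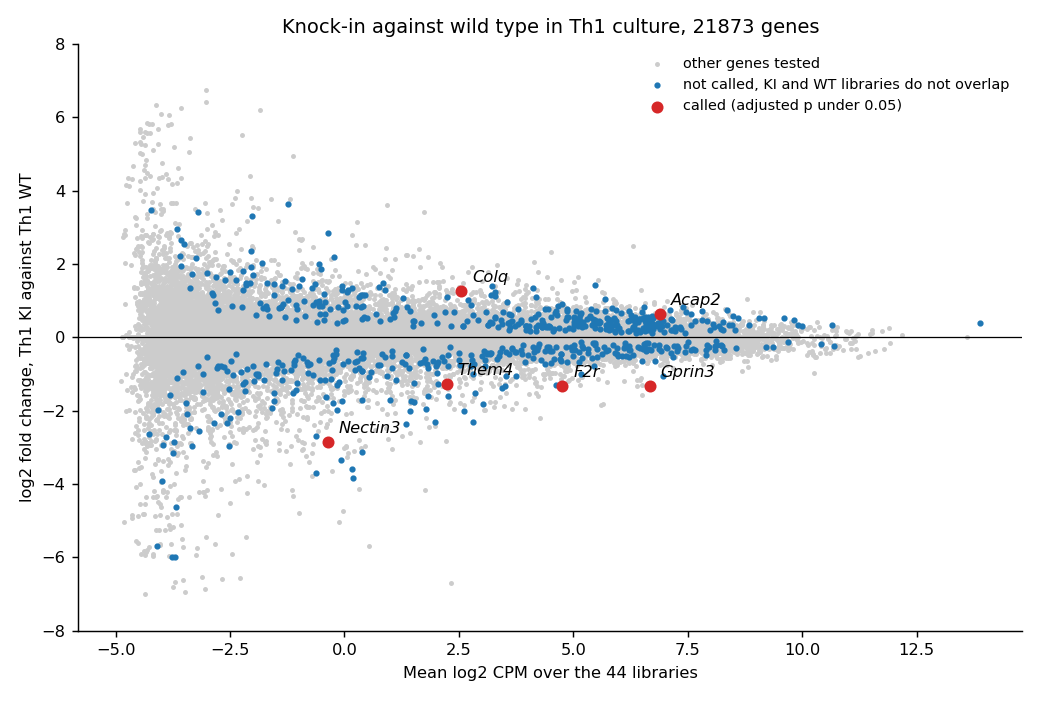
Each point is 1 of the 21873 genes tested, with the mean log2 CPM over the 44 libraries on the horizontal axis and the log2 fold change of Th1 KI against Th1 WT on the vertical axis (2 genes lie beyond it). Red points are the 6 called genes, blue points are genes that were not called but whose 5 KI and 5 WT libraries do not overlap.

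F2r encodes PAR1, the G protein-coupled receptor that thrombin activates by cutting it (chromosome 13, 95601803 to 95618487, minus strand). Its level in Th1 KI libraries 1 to 5 was 9.20, 11.4, 10.4, 8.04 and 7.46 CPM, and in Th1 WT libraries 1 to 5 it was 15.3, 23.8, 18.6, 37.9 and 20.8 CPM. All KI libraries lay below all WT libraries. The log2 fold change was -1.32 ± 0.22 (SE, adjusted p = 0.00806, edgeR), and the means were 9.30 ± 1.63 CPM in KI and 23.3 ± 8.75 CPM in WT (SD, n = 5 each). F2r passed the test in 19 of the 21 other settings tried. It missed it in both settings that used only the 10 libraries (adjusted p = 0.26 and 0.352, with fold changes of -1.33 and -1.27).

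Gprin3 encodes a membrane-associated protein of a family named for binding G proteins (chromosome 6, 59347226 to 59426294, minus strand). The KI libraries stood at 21.1, 18.3, 19.7, 40.9 and 35.8 CPM and the WT libraries at 32.5, 90.6, 43.1, 53.8 and 117.4 CPM. The groups overlapped, since Th1 KI 4 and 5 were above Th1 WT 1. The log2 fold change was -1.31 ± 0.24 (adjusted p = 0.0289, edgeR). Without Th1 WT 5, the highest library, it was -1.02 and the call was lost (adjusted p = 0.234).

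Them4 encodes a mitochondrial acyl-CoA thioesterase also described as a binding partner of AKT (chromosome 3, 94310089 to 94332540, plus strand). It stood at 2.82, 2.42, 1.35, 2.48 and 1.72 CPM in KI and at 3.57, 6.28, 3.78, 5.11 and 7.21 CPM in WT, without overlap. The log2 fold change was -1.27 ± 0.25 (adjusted p = 0.0363, edgeR). Nectin3, an adhesion protein (chromosome 16, 46387706 to 46498525, minus strand), was close in KI to the level that 3 counts give (0.0249 to 0.0327 CPM). Its KI libraries held 0.07 to 0.14 CPM and its WT libraries 0.29 to 1.19 CPM, and the log2 fold change was -2.86 ± 0.53 (adjusted p = 0.0289, edgeR).

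Colq encodes the collagen tail that anchors acetylcholinesterase (chromosome 14, 31523082 to 31591343, minus strand). Its KI libraries stood at 8.09, 8.36, 12.96, 7.60 and 8.63 CPM and its WT libraries at 5.45, 3.02, 4.06, 3.36 and 3.23 CPM. Every KI library was above every WT library, and Th1 KI 3 was the highest. The log2 fold change was 1.26 ± 0.24 (adjusted p = 0.0289, edgeR), and without Th1 KI 3 it was 1.10 (adjusted p = 0.286). Acap2 encodes a GTPase-activating protein for ARF6, which acts in membrane traffic (chromosome 16, 31092412 to 31201245, minus strand). It stood at 162.2, 166.2, 192.8, 129.5 and 155.2 CPM in KI and at 132.2, 98.5, 111.7, 82.8 and 94.0 CPM in WT. Only Th1 KI 4 lay below a WT library (Th1 WT 1), and the log2 fold change was 0.63 ± 0.12 (adjusted p = 0.0367, edgeR).

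**Figure D2:**
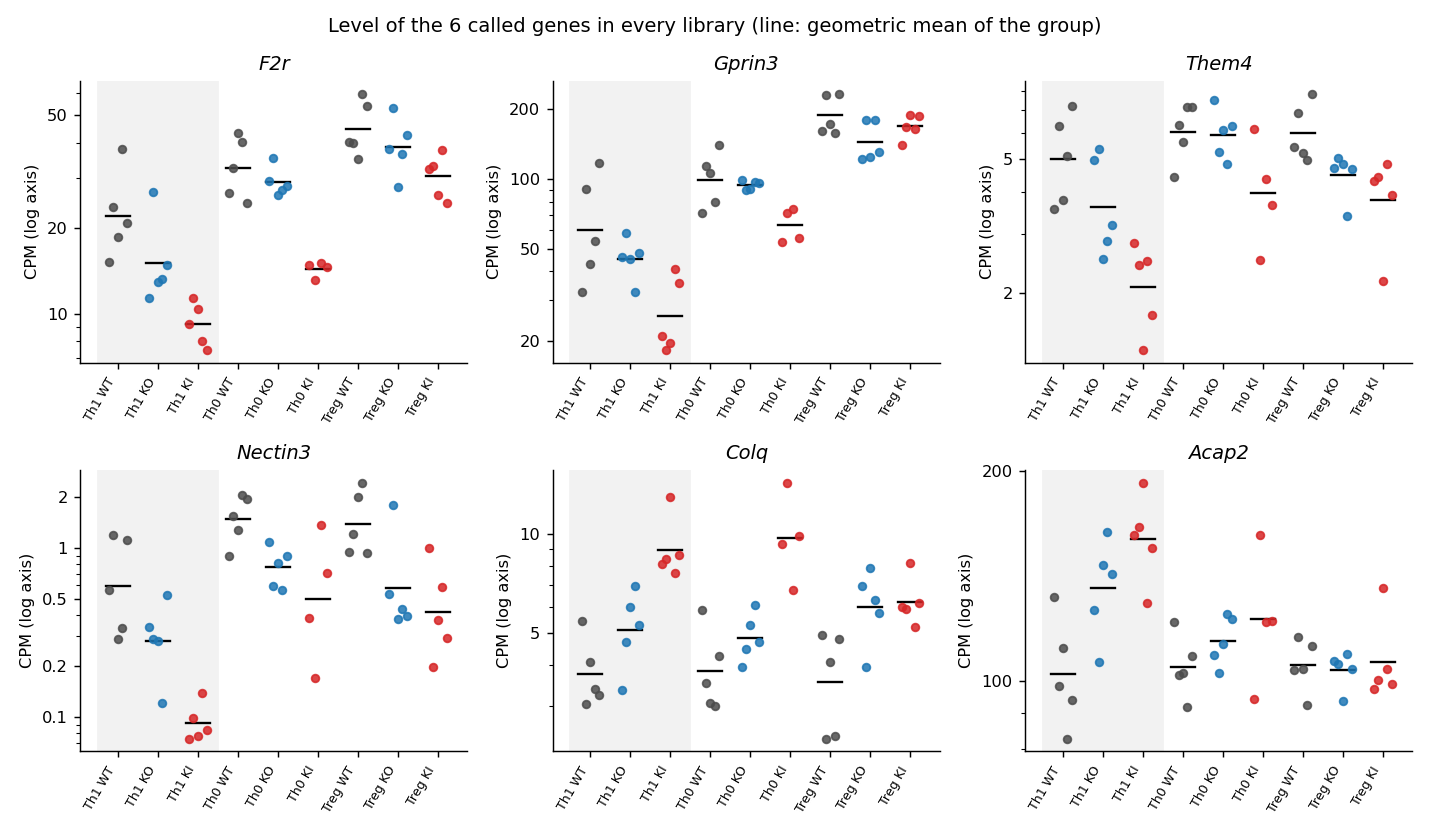
CPM (log axis) of the 6 called genes in each of the 44 libraries, by culture and genotype, with the Th1 groups shaded and a line at each group's geometric mean. In Th1 culture the KO libraries of F2r have a mean of 15.8 CPM, between 9.30 CPM in KI and 23.3 CPM in WT.

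The 5 knockout libraries of the Th1 culture, labelled as knockouts, did not lie on the far side of wild type for these genes. The Th1 KO mean lay between the KI and WT means for F2r (15.8 CPM), Gprin3 (46.1 CPM), Them4 (3.78 CPM), Nectin3 (0.311 CPM), Colq (5.25 CPM) and Acap2 (137.3 CPM). Neither side of that order passed a test: Th1 KO against Th1 WT and Th1 KI against Th1 KO each gave 0 calls in edgeR. They had 2000 (9.14%) and 1296 (5.93%) genes at an unadjusted p under 0.05, and 18 and 42 calls by DESeq2. The comparisons share the KI and WT libraries. These genes were also picked because KI and WT differed in those libraries, so a KO mean between them can follow from that choice alone. The order is therefore given as values only. Myb was not among the called genes, and its Th1 KO mean lay above all its Th1 WT and Th1 KI libraries (below).

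In the other cultures the same genes had the following values. Colq was 1.36 ± 0.25 higher in Th0 KI than in Th0 WT on the log2 scale (adjusted p = 0.0217, edgeR) and F2r was -1.21 ± 0.23 (adjusted p = 0.0334, edgeR), so both passed in Th0, where 0.512% of genes were called. Gprin3 (-0.68), Them4 (-0.55), Nectin3 (-1.24) and Acap2 (0.25) did not pass in Th0. In Treg culture no gene passed in KI against WT, and the log2 fold changes were -0.57 for F2r, 0.75 for Colq, -0.17 for Gprin3, -0.63 for Them4, -1.61 for Nectin3 and 0.02 for Acap2. The tests of the difference itself gave no call. For Th1 less Th0, edgeR called 0 genes with 712 (3.26%) at an unadjusted p under 0.05 (DESeq2 1). For Th1 less Treg it called 0 with 725 (3.31%, DESeq2 5). Same-numbered libraries of a genotype deviated together across cultures (correlations of 0.448 to 0.755 between Th1 KI and Th0 KI, and of 0.618 to 0.762 between Th1 WT and Th0 WT), so Th0 is not an independent repeat of Th1.

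Genes whose 5 KI and 5 WT libraries did not overlap numbered 353 higher in KI (1.61% of genes) and 308 lower (1.41%). After the called genes, those with the smallest p at a mean log2 CPM of at least 2 are described here, and none of them passed (adjusted p = 0.114 for each in edgeR). Among the higher ones were Ifi27, an interferon-induced gene (63.9 ± 24.1 CPM in KI and 23.7 ± 13.8 CPM in WT, log2 1.43 ± 0.37), and Zc3hav1, the antiviral protein ZAP that binds CpG-rich RNA (log2 0.52 ± 0.13). Srr, the serine racemase, had a log2 difference of 0.77 ± 0.17, and utrophin (Utrn) one of 0.68 ± 0.17. The others were Pacsin1 (1.09), Vps13d (0.49), the chromatin remodeller Chd2 (0.45), Bsdc1 (0.43) and Brox (0.40).

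Lta had the smallest p of the 26 cytokine genes. It encodes lymphotoxin alpha, a TNF family cytokine made by activated T cells (chromosome 17, 35203165 to 35205351, minus strand). Its KI libraries stood at 103.8, 79.6, 31.3, 120.4 and 89.1 CPM and its WT libraries at 133.6, 195.6, 206.0, 163.5 and 174.5 CPM, and the log2 fold change was -1.04 ± 0.27 (not called). Th1 KI 3 was the lowest, and the groups did not overlap with it or without it. The other lower genes of this kind were Xk (-1.27), Jmjd8 (-1.04), the mitochondrial ribosomal gene Mrps25 (-0.99), the folate hydrolase gene Ggh (-0.79), the mitochondrial peptidase gene Mipep (-0.71), Ube2e3 (-0.45) and the N-glycan enzyme gene Alg6 (-0.36). In the DESeq2 fit all 17 of these genes, higher and lower, passed at 0.05, where 424 of 16174 genes did. They were picked by their edgeR p in the same libraries, so that result is no separate support.

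The Th1 programme is specified by T-bet, which turns on Ifng. Tbx21 was 95.2 ± 10.9 CPM in KI and 96.6 ± 20.5 CPM in WT (log2 -0.02 ± 0.76), and its sign turned in 6 of the 21 settings. Ifng stood at 1214, 1426, 1241, 1291 and 791 CPM in KI and at 1442, 1323, 2115, 2985 and 1072 CPM in WT. The groups overlapped, and the log2 fold change was -0.58 ± 1.33 (adjusted p = 0.888, edgeR). For Tbx21, Ifng, Foxp3 and the Th1 genes below, the edgeR SE and p rest on a spread taken over all 44 libraries. That spread includes the Th0 and Treg cultures, so it does not measure the spread within Th1 KI and Th1 WT alone. A missed call for these genes therefore does not show that the Th1 groups were alike. Of 24 Th1 genes, 8 had a value above 0 and none passed in edgeR or DESeq2. At an unadjusted p under 0.05 there were 4, all lower, beside 15.1% of all genes in both directions. The median of the 24 genes was -0.35, and it was -0.21 without Th1 KI 5. It was 0.05 without Th1 WT 4, the library with the highest Ifng and Cd8a and the lowest Cd4. Foxp3, the regulatory T cell factor, stood at 1.01 ± 0.44 CPM in KI and 1.67 ± 0.76 CPM in WT (log2 -0.74 ± 0.56, not called).

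The receptors that carry IL-18 and interferon-gamma signals had members without overlap in both directions. In their group of 21 genes, 1 was higher and 2 lower without overlap, beside 1.61% and 1.41% of all genes. None of the group passed in edgeR, while DESeq2 called 1 higher and 1 lower and edgeR without Th1 KI 4 called 1 higher. Il18rap, the accessory chain of the IL-18 receptor, stood between 41.2 and 54.9 CPM in KI and between 61.3 and 104.9 CPM in WT (log2 -0.79 ± 0.21, adjusted p = 0.114, edgeR). Il18r1, the ligand-binding chain, stood from 96.3 CPM upwards in KI, with a median of 99.8 CPM, and between 130.7 and 201.4 CPM in WT (log2 -0.64 ± 0.38). Ifngr2, the signalling chain of the interferon-gamma receptor, stood between 9.74 and 22.1 CPM in KI and between 7.04 and 9.59 CPM in WT (log2 0.66 ± 0.19). The median over the 21 genes of this signalling group was 0.15, and it was 0.02 without Th1 WT 5 and 0.05 without Th1 KI 3.

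Antiviral interferon-stimulated genes had the highest median of the gene groups listed. Of 29 tested genes, 28 had a higher KI mean and the median log2 fold change was 0.81, beside 0.0054 over all genes. None passed the test (9 at an unadjusted p under 0.05, all higher, beside 15.1% of all genes, and 0 by DESeq2). Irf9, a transcription factor of the type I interferon response, had KI libraries at 67.4, 69.9, 84.8, 67.7 and 79.1 CPM and WT libraries at 66.2, 41.02, 50.6, 42.3 and 39.4 CPM, without overlap (log2 0.62 ± 0.20, adjusted p = 0.137, edgeR). Zbp1, a sensor of Z-form nucleic acid, was the other member without overlap (log2 0.71 ± 0.31). So 2 of 29 were higher without overlap, beside 1.61% of all genes. Oas1a, which makes the 2-5A messenger on double-stranded RNA, stood between 8.19 and 58.3 CPM in KI and between 2.05 and 12.8 CPM in WT, with the highest value in Th1 KI 3 (log2 1.62 ± 0.68). Mx1, an interferon-induced GTPase gene, ranged from 1.48 to 19.5 CPM in KI and from 1.301 to 9.82 CPM in WT and overlapped widely (log2 0.56 ± 0.80).

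The spread within each genotype was wide for this group. A library's score was taken as the median over members of log2(CPM + 0.5) relative to each gene's mean over the 10 libraries. It ran from -0.05 (Th1 KI 2) to 0.89 (Th1 KI 4) in KI and from -1.12 (Th1 WT 5) to 0.41 (Th1 WT 1) in WT. Th1 WT 1 held the highest WT level of 25 of the 29 genes, and without it the group's median fold change was 1.21 in place of 0.81. The median was 1.54 in Th0 culture and 0.38 in Treg culture for KI against WT, and it was 0.24 for Th1 KO against Th1 WT. The guanylate-binding and immunity-related GTPases, which interferon-gamma induces, lay near 0: 8 of 17 were above 0, the median was -0.002, and Gbp2 had the smallest p (332 CPM in KI and 586 CPM in WT, log2 -0.82 ± 0.41, not called).

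MHC class I genes load and present peptides on the cell surface. Beside 15.1% of all genes, 6 of 21 had an unadjusted p under 0.05, 5 of them higher. None was called in edgeR or DESeq2, 18 of the 21 were above 0 and the median was 0.28. Nlrc5, their main transactivator, stood between 346 and 650 CPM in KI and between 216 and 316 CPM in WT, without overlap (log2 0.75 ± 0.24, adjusted p = 0.132, edgeR). H2-K1 had means of 929 CPM in KI and 694 CPM in WT (log2 0.42 ± 0.19).

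Genes of cell division had lower KI means. Of 30 cell cycle genes, 25 had a lower KI mean and the median log2 fold change was -0.39. None passed in edgeR, and 18 had an unadjusted p under 0.05 (17 lower, 1 higher), beside 15.1% of all genes. The number that passed as lower was 7 in DESeq2, beside 264 of 16174 genes. It was also 7 in edgeR without Th1 KI 4, beside 182 of 21821 genes. These 2 settings are not separate support, since 245 of the 283 calls without Th1 KI 4 were also DESeq2 calls. Ccna2, cyclin A2 of S and G2 phase, stood at 180.0, 141.2, 86.4, 210.4 and 145.8 CPM in KI and at 199.4, 302.5, 211.1, 229.5 and 348.7 CPM in WT. Only Th1 KI 4 reached the WT range (log2 -0.76 ± 0.18, adjusted p = 0.114, edgeR). Cdk1, the mitotic kinase, was the 1 member without overlap, where 1.41% of all genes were lower without overlap. It stood between 61.3 and 136.6 CPM in KI and between 136.8 and 197.1 CPM in WT (log2 -0.54 ± 0.17), so the nearest libraries almost touched. Top2a (838 and 1203 CPM), the proliferation marker Mki67 (877 and 1171 CPM) and the replicative helicase subunit Mcm6 (314 and 441 CPM) had log2 fold changes of -0.52 ± 0.16, -0.42 ± 0.16 and -0.49 ± 0.12. Ccnd2, cyclin D2 of G1 phase, was the member with an unadjusted p under 0.05 in the other direction (log2 0.33 ± 0.13).

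Within KI, Th1 KI 3 held the lowest level of 24 of the 30 cell cycle genes and Th1 KI 4 the highest of 19. Th1 KI 3 is also the KI library with the high Cd8a. With the Cd8a level as a term the median stayed at -0.39 and 1 gene passed as lower, beside 7 of all 21873 genes. With WT 4, KO 2 and KI 3 left out of all cultures it was -0.25 and no cell cycle gene passed. Factors of ribosome assembly, a growth-linked group, had 21 of 22 members below 0 with a median of -0.24. At an unadjusted p under 0.05, 5 were lower, beside 15.1% of all genes in both directions. None was called in edgeR or DESeq2. That median was -0.13 without Th1 KI 3 and -0.15 without Th1 WT 2. Nucleophosmin (Npm1) had means of 1984 CPM in KI and 2867 CPM in WT (log2 -0.53 ± 0.18).

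Genes of naive and resting T cells had higher KI means. Of 22, 19 were above 0 with a median of 0.38. None passed in edgeR or DESeq2, and 5 were higher at an unadjusted p under 0.05, beside 15.1% of all genes in both directions. The libraries of 3 did not overlap, all higher in KI, beside 1.61% of all genes. Ccr7, the lymph node homing receptor, stood at 539, 703, 523, 503 and 718 CPM in KI and at 479, 473, 409, 252 and 440 CPM in WT (log2 0.54 ± 0.22). Foxp1, a factor that keeps T cells quiescent, stood between 206.7 and 288.2 CPM in KI and between 127.6 and 205.3 CPM in WT (log2 0.45 ± 0.23), and Klf6 was the third (0.35 ± 0.27). Foxo1 (0.39 ± 0.17), Foxo3 (0.46 ± 0.15), Btg1 (0.59 ± 0.21) and Bach2 (0.46 ± 0.18) had an unadjusted p under 0.05 with overlapping groups. In Th0 and Treg culture the group's median for KI against WT was 0.19 and 0.17.

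**Figure D3:**
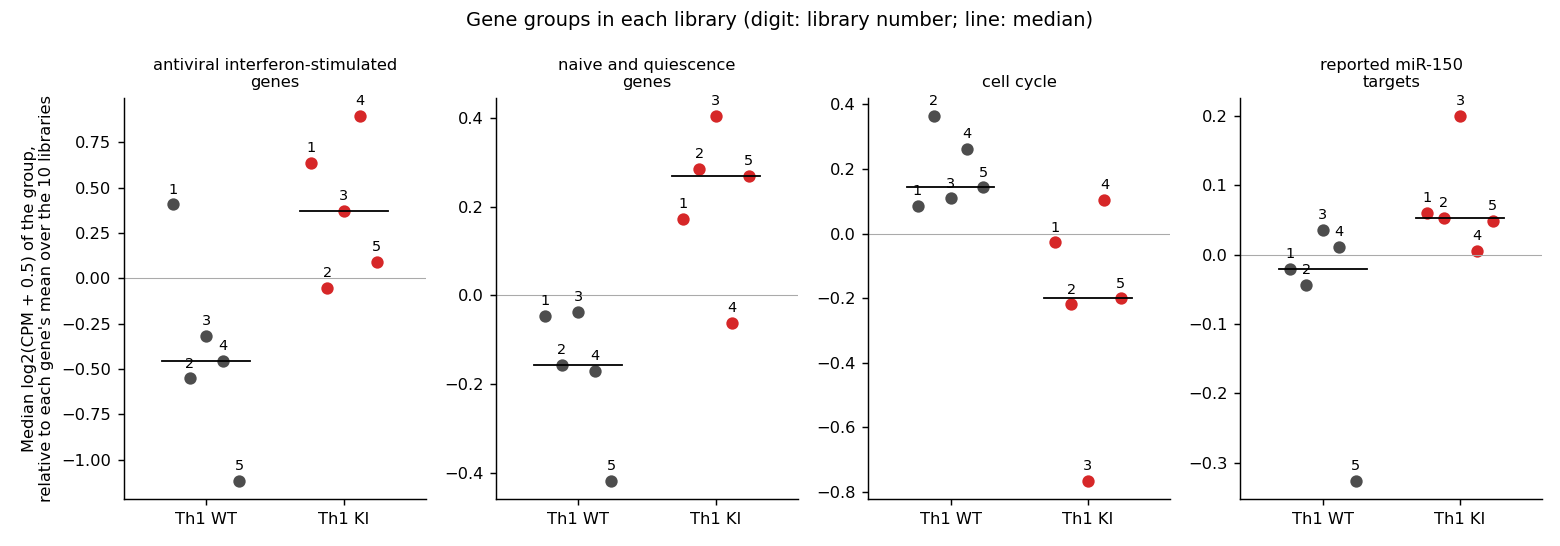
Score of 4 gene groups in each Th1 WT and Th1 KI library (median over genes of log2(CPM + 0.5) relative to each gene's mean over the 10 libraries), digits being library numbers and lines the medians. Th1 KI 3 is lowest in the cell cycle group (-0.76), and Th1 WT 5 is lowest in the antiviral group (-1.12) and among reported targets (-0.33).

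Transcripts reported as targets of miR-150 did not lie lower in KI as a group. Of 24 tested, 15 were above 0 with a median of 0.12. None passed in edgeR, and 5 had an unadjusted p under 0.05 (4 higher, 1 lower), beside 15.1% of all genes. In DESeq2 1 passed as higher, beside 160 of 16174 genes. The median was 0.05 without Th1 WT 5 and 0.07 without Th1 KI 3. Myb stood at 67.5, 62.7, 93.5, 54.6 and 39.2 CPM in KI and at 66.8, 53.1, 108.3, 122.9 and 56.8 CPM in WT. The groups overlapped and the log2 fold change was -0.36 ± 0.23 (adjusted p = 0.479, edgeR), with a range of -0.53 to -0.17 over the settings tried. In Th1 KO the mean was 130 ± 13.1 CPM, and Th1 KI against Th1 KO gave a log2 difference of -1.03 (adjusted p = 0.26, edgeR). P2rx7, the ATP-gated channel, was the reported target with an unadjusted p under 0.05 and a lower KI level (17.5 and 34.6 CPM, log2 -0.98 ± 0.38). Elk1 (0.55 ± 0.17), Foxo1 (0.39 ± 0.17), Stat5b (0.39 ± 0.18) and Zeb1 (0.34 ± 0.16) were the 4 on the higher side. Foxp1 was the reported target whose groups did not overlap, where 1.61% of all genes were higher without overlap.

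The seed motif was also counted over all genes. Among tested genes with a 3′ UTR and a mean log2 CPM of at least 2, the 1670 genes with TTGGGAG had a median log2 fold change of 0.01 and the 8168 without it -0.002. Non-overlapping groups were higher in KI for 2.64% and lower for 1.26% of genes with the motif, and for 2.03% and 1.48% of those without it. Genes with the motif had longer UTRs (median 2495 bases against 1024). Within 5 equal bins of UTR length the medians with the motif ran from -0.05 to 0.03 and those without it from -0.02 to 0.01. F2r and Them4, both lower in KI, were the 2 called genes with the motif. Among the uncalled genes described above by smallest p without overlap, Zc3hav1, Chd2 and Pacsin1, all higher in KI, and Mrps25, lower in KI, also held it. Of all tested genes with a 3′ UTR and a mean log2 CPM of at least 2, 16.97% held the motif, and no excess is claimed.

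Argonaute and microRNA processing genes gave 10 of 19 members above 0 with a median of 0.03. None was called in edgeR or DESeq2. At an unadjusted p under 0.05, 6 were higher and 0 lower, beside 15.1% of all genes in both directions. Leaving out 1 library at a time put the median between -0.03 and 0.08. Ago2, which cuts or silences the bound messenger, had means of 505 CPM in KI and 397 CPM in WT (log2 0.35 ± 0.12). Ago1 was the member without overlap, where 1.61% of all genes were higher without overlap. It stood between 84.3 and 115.4 CPM in KI and between 72.98 and 83.4 CPM in WT (log2 0.32 ± 0.15). Dicer1 had a log2 difference of -0.07 ± 0.10 and Drosha one of -0.12 ± 0.15. Among genes within 50000 bases of the hairpin none passed. Rpl13a had a log2 difference of 0.27 ± 0.17, and the transcript Gm45552, annotated as antisense, had 0.640 ± 0.107 CPM in KI and 0.574 ± 0.091 CPM in WT.

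**Figure D4:**
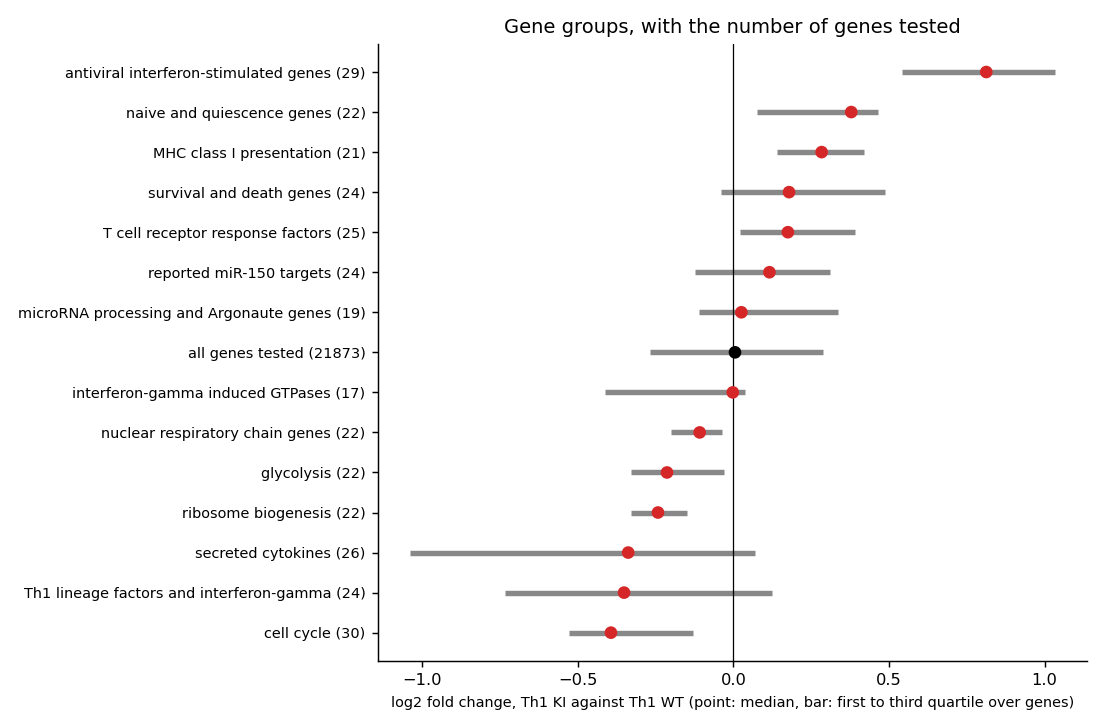
Median log2 fold change of Th1 KI against Th1 WT (point) with the interquartile range over genes (bar) for 14 gene groups and for all genes tested (black), with the number of genes in brackets. The antiviral group has the highest median (0.81) and the cell cycle group the lowest (-0.39) of those drawn.

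Survival genes were split. Birc2, the cIAP1 ubiquitin ligase, stood between 191 and 463 CPM in KI and up to 182.2 CPM in WT (WT median 147.1 CPM), without overlap and with the highest value in Th1 KI 3 (log2 0.83 ± 0.24, adjusted p = 0.121, edgeR). Bcl2l11, the death-promoting BIM, had a log2 fold change of 0.67 ± 0.28, and Birc5, survivin, which also acts in mitosis, had -0.71 ± 0.18. Of the 24 genes 16 were above 0 with a median of 0.18, which was 0.27 without Th1 WT 5. None passed in edgeR (6 higher and 1 lower at an unadjusted p under 0.05, beside 15.1% of all genes). DESeq2 called 1 higher and 1 lower, beside 160 and 264 of 16174 genes. Without Th1 KI 4, edgeR called 1 lower, beside 182 of 21821 genes. Secreted cytokines had 7 of 26 members above 0 and a median of -0.34, with none called in edgeR. DESeq2 called 1 lower, beside 264 of 16174 genes, and edgeR without Th1 KI 4 also called 1 lower. Without WT 4, KO 2 and KI 3 in all cultures that median was -0.18. Il2 ranged from 0.572 to 122.7 CPM in KI and from 1.03 to 293 CPM in WT (log2 -1.3 ± 0.87), so the groups overlapped over most of their range.

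B cell transcripts also had higher KI means, and the highest levels were in 1 library. All 11 B cell genes had a value above 0 with a median of 0.80 and none passed. Th1 KI 3 held the highest KI level of all 11, and without it the median was -0.09. It was 0.51 without Th1 WT 3 and 1.23 without Th1 WT 4. For the antiviral group the median without Th1 KI 3 was 0.86.

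The number of calls depended strongly on the fit. DESeq2 called 424 genes (160 higher and 264 lower), which included the 6, and edgeR without Th1 KI 4 called 283 (182 of them lower), of which 245 were also among the DESeq2 calls. Leaving out any other KI library gave 1 or 2 calls, leaving out Th1 WT 1 gave 18, and leaving out another WT library gave 1 to 4. Fits of the 10 libraries alone gave 0. Without WT 4, KO 2 and KI 3 in all cultures, F2r (log2 -1.12, adjusted p = 0.00574, edgeR) and Nectin3 (log2 -2.97, adjusted p = 0.0282, edgeR) were the 2 calls.

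**Figure D5:**
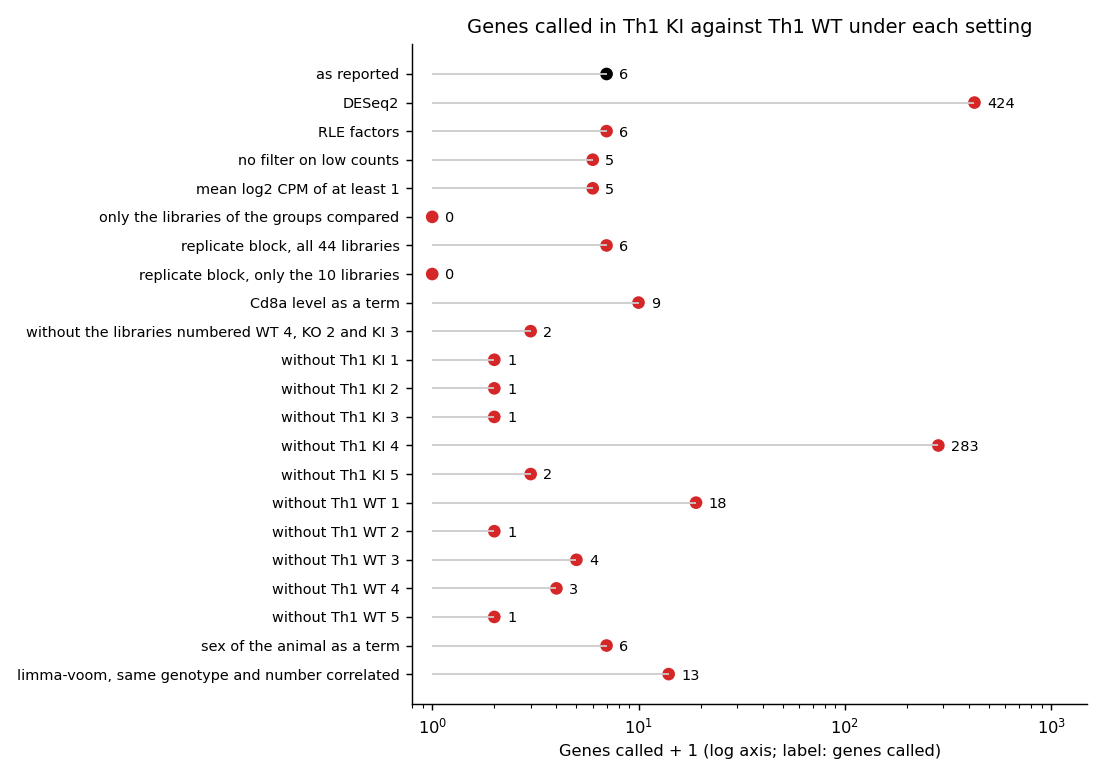
Number of genes called in Th1 KI against Th1 WT (adjusted p under 0.05) under each setting, drawn as the number plus 1 on a log axis and printed beside each point. The counts run from 0 in the fits of the 10 libraries alone to 424 with DESeq2, around 6 as reported.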

How the data were processed

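RNA was sequenced from poly(A)-selected stranded libraries as pairs of 150-base reads, per the labels' protocols. The authors deposited whole-number read counts per gene and lane, from trimmed reads aligned with STAR, per the file headers; no source used here names the counting tool or its strand setting. The submitters' processing notes name GRCh38, although the gene identifiers are mouse. Positions are from GENCODE M21 (GRCm38), the miRNA from RefSeq (GRCm38.p6). Lanes were summed. edgeR 4.0.16 (TMM, filterByExpr, 9 group means, 44 libraries, R 4.3.3) tested 21873 of 55416 genes, 1492 of which have only an identifier, at a Benjamini-Hochberg threshold of 0.05; DESeq2 1.42.0 and limma 3.58.1 gave alternatives. SE is the fold change over the root of F. The script was tested on simulated data. The labels do not say whether replicates are separate animals, so p-values measure the spread between libraries. That spread was taken for each gene over all 44 libraries, not over the 10 compared. Within Th1 KI and within Th1 WT no library was a copy of another. Named genes were Mir150 and its neighbours, Tbx21, Ifng, Foxp3, Myb, list anchors, and up to 10 per direction by call and p whose groups did not overlap (mean log2 CPM at least 2). Nectin3, Gprin3, Acap2 and other list members fall outside that rule and were chosen after their values were seen. The members and lists were chosen with earlier results of these data known. Library numbers did not pair KI with WT (correlations of same-numbered deviations from -0.445 to 0.318).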

Additional observations from a re-analysis of the deposited data

Results flagged for a closer look

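Among 80 groups of 5 values checked (40 genes in 2 groups), 8 had 1 library whose gap to the nearest of the others exceeded Dixon's 95% limit of 0.71 of the range. Among independent, normally distributed groups chance flags about 1 in 20. These genes were partly chosen after their values were seen and share libraries, so that rate does not apply and no excess is claimed. Th1 KI 3 gave 5 of the 8 flags. Colq was 12.96 CPM there against 7.60 to 8.63 CPM in the other KI libraries, Ifi27 was 106.5 CPM against 47.9 to 57.1 CPM, Cd8a was 107.4 CPM against 3.24 to 9.32 CPM, Gzmb was 2144 CPM against 399 to 782 CPM, and E2f1 was 24.9 CPM against 30.1 to 32.1 CPM. Th1 WT 4 gave 2, with Cd8a at 131.5 CPM against 2.41 to 8.495 CPM and Gzmb at 5733 CPM against 628 to 1585 CPM. In Th1 WT 1, Ggh was 7.31 CPM against 8.99 to 9.46 CPM in the other WT libraries. The cause of these gaps was not tested.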

How the results depend on the processing

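The 6 called genes kept their sign in every setting tried, in which F2r passed in 19 of 21, Gprin3 in 13, Them4 in 11, Nectin3 in 11 of 20, Colq in 10 and Acap2 in 9. For Th1 KI against Th1 WT, where 6 genes were called, the count was 424 with DESeq2, 0 with only the 10 libraries, 0 with the replicate block on those 10, 2 without WT 4, KO 2 and KI 3, and 13 with limma-voom (correlation 0.221 between libraries of the same genotype and number). It was 1 to 283 when each KI or WT library was left out in turn, 6 with the replicate block over all 44 libraries, with RLE factors and with sex as a term, 5 with either other filter, and 9 with Cd8a as a term. The sex term and limma-voom were added after seeing the data. The replicate block by genotype gave 0 calls for both differences between cultures and changed no call there. DESeq2 gave 1 call for Th1 less Th0, 5 for Th1 less Treg, 42 for Th1 KI against Th1 KO and 18 for Th1 KO against Th1 WT, where edgeR gave 0. limma-voom gave 1 for Th1 KI against Th1 KO. Th1 KO against Th1 WT gave 1 with the filter raised to a mean log2 CPM of 1 and 0 to 3 when a library was left out. Tbx21, near 0, turned positive at 0.0035 with the replicate block, at 0.010 without WT 4, KO 2 and KI 3, and in 4 of the fits that left out a library, which ran from -0.124 to 0.070. The Th1 group's median became 0.050 without Th1 WT 4. The cause of these changes was not tested. Depth limits what can be said of Nectin3 and Mir150, both at few counts.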
